A study of Mus musculus with 13 samples.

Results

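The AP-1 factors described here are *Fos*, *Fosb*, *Fosl1*, *Fosl2*, *Jun*, *Junb*, *Jund*, *Batf3* and *Atf3*, 9 of the 24417 genes counted by RNA-seq in sorted mouse T cells, and the members are a list of gene symbols that was drawn up with earlier results of these data known; no threshold on a measured value was applied. All 13 libraries came from CD4 T cells of pooled spleen and lymph nodes of C57BL/6 mice, and both experiments compare cells that express Foxp3, the transcription factor of regulatory T (Treg) cells, or a null reporter of it, in healthy and inflamed animals. The first experiment used male mice at day 21 treated with 1 dose of 4-hydroxytamoxifen at day 14 after birth: 3 libraries of control Treg cells (Foxp3DTR-GFP/yCd4creERT2), 3 of rescued Treg cells (Foxp3LSL/yCd4creERT2) and 2 of Treg “wannabes” (Foxp3LSL/yCd4wt). In the Foxp3LSL allele a Thy1.1 reporter and a STOP cassette between loxP sites block Foxp3, and Cre-ERT2, expressed from the *Cd4* locus, removes them after tamoxifen. Cre-ERT2 is present in the control and the rescued Treg cells and absent from the “wannabes”, so the enzyme and Foxp3 expression cannot be told apart in comparisons with “wannabes”. The paper describes the control mice as healthy and the Foxp3LSL/y males as already diseased when treated. In Foxp3LSL/yCd4wt mice the disease then progressed. Disease and allele thus also differ between control Treg cells and both other male groups, and cannot be told apart in those comparisons. The second experiment used female mice of 9 to 11 weeks, all given diphtheria toxin 7, 5, 3 and 1 days before analysis: 3 libraries of resting “wannabes” (Foxp3LSL/WTCd4wt), whose mice keep Treg cells, and 2 of activated “wannabes” (Foxp3LSL/DTRCd4wt), whose Treg cells carry the toxin receptor. Sex, age, drug and allele differ between the experiments, which were normalized separately, so levels are compared only within one experiment.

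AP-1 is a dimer of basic leucine zipper proteins. A Jun protein pairs with another Jun or with a Fos protein, and Batf3 and Atf3 pair with Jun proteins. *Fos*, *Fosb*, *Jun*, *Junb* and *Atf3* belong to the early response genes, which are transcribed soon after a cell receives a signal or a stress, the preparation of cells from tissue included. *Jund* is expressed more steadily, *Fosl1* and *Fosl2* usually follow later, and *Batf3* is best known as a factor of cross-presenting dendritic cells that T cells also use. In T cells AP-1 joins NFAT at composite sites of cytokine genes after T cell receptor signaling, and Irf4 binds beside Batf–Jun dimers.

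The sequences just before the start sites of *Fos*, *Jun* and *Junb* are shown because these were the members that differed most clearly between the “wannabe” groups. RefSeq on GRCm38.p6 gives a promoter for 8 of the 9 members. The 150 bases before each start are printed 5′ to 3′ on the strand of the gene, with capitals marking every match to TGANTCA (the AP-1 site), TGACNTCA (the cyclic AMP response element, CRE, allowing any base in its centre), TGACG (the core of the CRE) or TATAAA, searched on both strands. TGACG can also lie within a TGACNTCA match, which did not occur in these windows.
Fos, chr12:85473740-85473889, plus strand: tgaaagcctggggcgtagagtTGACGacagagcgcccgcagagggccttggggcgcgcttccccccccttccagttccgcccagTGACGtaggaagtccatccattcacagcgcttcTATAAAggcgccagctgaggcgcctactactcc
Jun, chr4:95052223-95052372, minus strand: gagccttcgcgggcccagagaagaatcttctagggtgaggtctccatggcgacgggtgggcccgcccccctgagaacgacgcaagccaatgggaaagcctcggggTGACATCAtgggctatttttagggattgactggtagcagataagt
Junb, chr8:84978749-84978898, minus strand: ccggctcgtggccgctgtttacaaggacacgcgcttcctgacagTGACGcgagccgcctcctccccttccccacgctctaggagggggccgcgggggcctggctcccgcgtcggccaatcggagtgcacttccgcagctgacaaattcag
*Fos* held TGACG 2 times, the nearer copy beginning 66 bases before the start, and TATAAA 33 bases before it. *Jun* held the CRE-type letters TGACATCA from 45 bases before its start, and *Junb* held TGACG from 106 bases before its start. *Fosb* and *Atf3* each held 1 TGACG, whereas the windows of *Fosl2*, *Jund* and *Batf3* held none of the 4 motifs, the *Jund* entry starting 1210 bases upstream of its GENCODE gene. Among 32851 RefSeq promoters, 13.3% held TGACG in the same window, 5.7% TGACNTCA, 7.57% TATAAA and 4.24% TGANTCA, and these matches describe letters only.

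Counted reads per library lay between 25556783 and 36659638, so that the floor of 3 counts corresponded to between 2.73 and 3.89 normalized counts (counts scaled by edgeR's TMM library sizes). Replicate libraries correlated at 0.934 to 0.947 among male and at 0.978 to 0.987 among female libraries (Pearson's r across genes of log2 CPM, counts scaled to a common total), and every pair differed by more than counting noise (chi-square divided by its degrees of freedom, 13.2 to 144). The female libraries came from separate mice, and the male libraries were biological replicates. The 5 T cell markers summed to between 119400 and 193800 normalized counts per library, against 365 to 1136 for the CD8 T and NK cell list, 301 to 1471 for B cells, 39.8 to 359 for myeloid cells, 29.2 to 241 for dendritic cells and 29.5 to 545 for red cells. *Clec9a* of dendritic cells was at 0 in all libraries and *Cd14* at 0 in the control Treg, the “wannabe” and the activated “wannabe” libraries. The 4 Treg markers summed to 71200 to 113700 in Treg cells and to 38800 to 46740 in “wannabes”.

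Per kilobase of exon, *Junb* was the most abundant member in 4 of the 5 groups. In control Treg cells its level was 11347 ± 1969 normalized counts per kb (SD, n = 3). *Fos* (707 ± 509), *Jun* (624 ± 315) and *Jund* (542 ± 63.8) followed and did not differ beyond their spread. *Fosb* lay at 24.8 ± 10.4, and *Fosl1* (8.86), *Fosl2* (7.53) and *Atf3* (7.03) lay close together, each with an SD of at least 3.85. In resting “wannabes” *Junb* again led at 28444 ± 835 per kb, with *Jun* (6532 ± 1184), *Jund* (6441 ± 5316) and *Fos* (5129 ± 264) below it. In activated “wannabes” *Jund* (19161 ± 3475 per kb, n = 2) and *Junb* (16964 ± 2972) overlapped at the top, above *Fos* (2410 ± 985) and *Jun* (2297 ± 424). The plot of all members by library shows that the scale of the members spans from none to 67543 normalized counts.

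**Figure D1:**
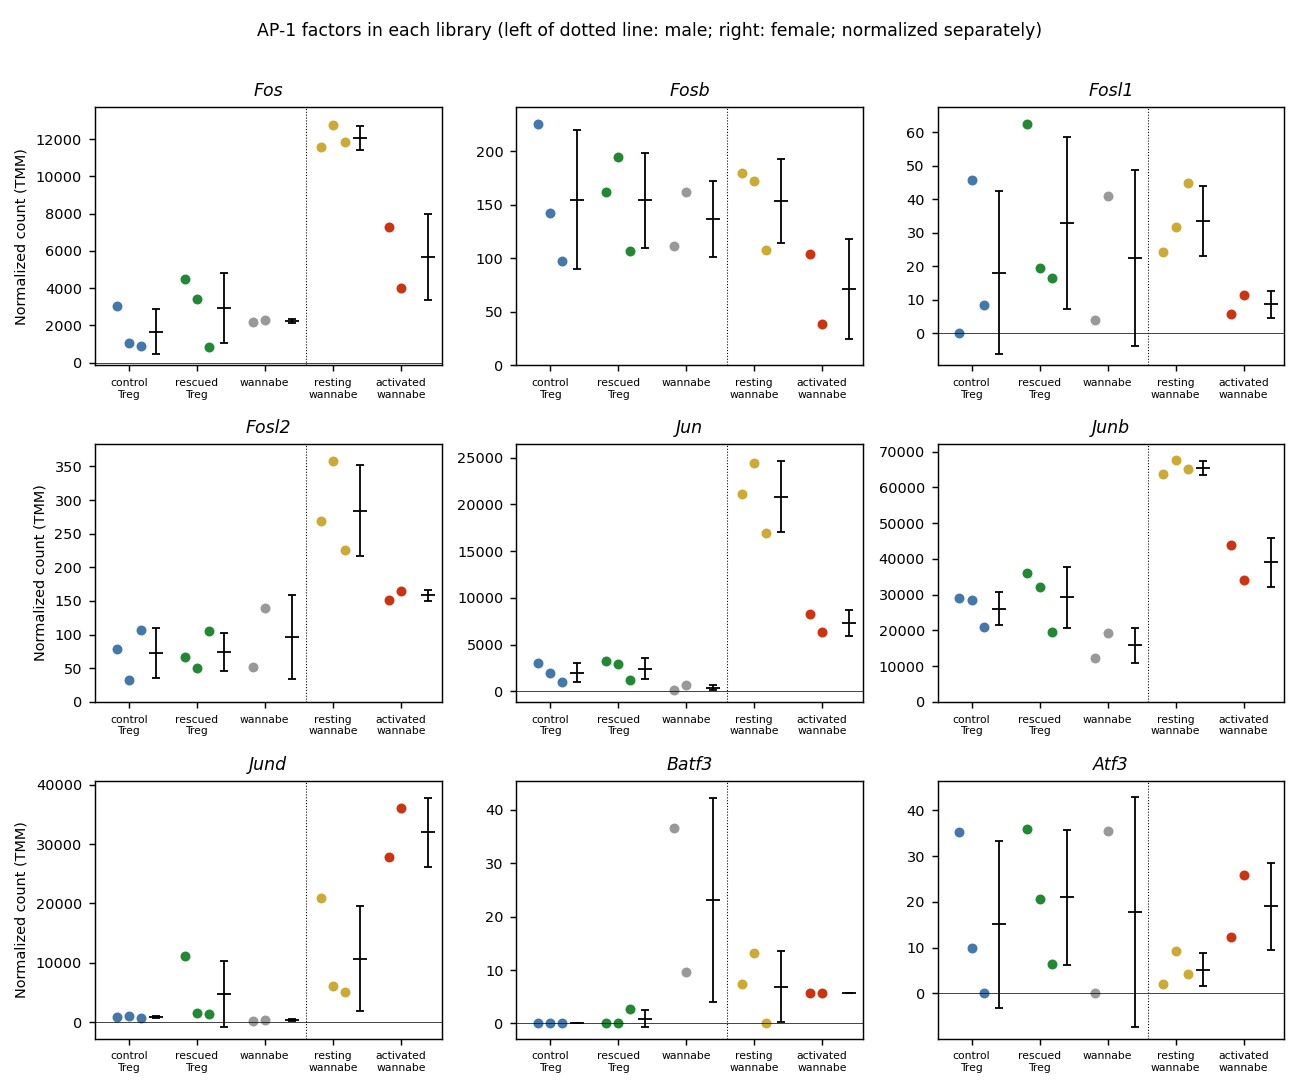
Normalized count (linear axis) of each AP-1 factor in every library, by group, with replicates in numerical order from left to right and the mean ± SD of each group in black. The activated libraries lie below all resting libraries for *Fos*, *Fosb*, *Fosl1*, *Fosl2*, *Jun* and *Junb* and above them for *Jund* and *Atf3*, while most male groups overlap.

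In the female mice *Fos*, *Jun* and *Junb* fell in activated relative to resting “wannabes”, a comparison that asks what inflammation changes in cells without Foxp3. *Fos* (chromosome 12, 85473890 to 85477273, plus strand, GRCm38), which encodes the founding Fos protein, was counted at 11576, 12764 and 11852 in the resting and at 7305 and 4030 in the activated libraries. The groups did not overlap, and the log2 fold change was -1.09 ± 0.24 (SE, edgeR's quasi-likelihood test, adjusted p = 0.0215). *Jun* (chromosome 4, 95049034 to 95052222, minus strand), a gene with 1 exon that encodes c-Jun, stood at 21089, 24467 and 16931 normalized counts in the resting and at 8281 and 6368 in the activated libraries. Every activated library was again below every resting one, and the log2 fold change was -1.51 ± 0.19 (edgeR adjusted p = 0.00308). *Junb* (chromosome 8, 84974484 to 84978718, minus strand), which encodes a Jun protein abundant in activated T cells, had 63764, 67543 and 65045 in the resting and 43870 and 34200 in the activated libraries. Its log2 fold change was -0.75 ± 0.11 (edgeR adjusted p = 0.00652), and the 3 resting libraries lay close together. Summed markers of some other cell types stood apart in the same groups. The 6 B cell markers summed to 301 to 366 normalized counts in the resting and 672 to 737 in the activated libraries, and the 6 dendritic markers to 97.8 to 131 and 200 to 239, with *Clec9a* at 0 in both and *Itgax* at 0 in the resting group. The 4 CD8 T and NK cell markers summed to 365 to 456 and 524 to 538, with *Ncr1* at 0 in the resting group, the 5 T cell markers to 139000 to 151400 and 128600 to 133800, and the myeloid, red cell and Treg lists overlapped. The part of these cells in the lower *Fos*, *Jun* and *Junb* was not tested.

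Of the 8 members tested, 3 were called lower and 0 higher, where 11.2% of the 13166 genes tested were called lower and 11.3% higher (edgeR, adjusted p under 0.05). DESeq2 called 5 members lower, *Fosl1* and *Fosl2* in addition, where it called 13.4% of 14291 genes lower, and 7 of the 8 had an unadjusted p under 0.05 in edgeR, as did 38.1% of all genes tested. All 8 had no overlap between resting and activated libraries, against 56.5% of all genes. *Fosb* (chromosome 7, 19302696 to 19310051, minus strand), a close relative of *Fos*, had 180, 172 and 108 normalized counts in the resting and 104 and 38.2 in the activated libraries, with a log2 fold change of -1.11 ± 0.47 (edgeR adjusted p = 0.136) that was -2.01 without the first and -0.57 without the second activated library. *Fosl2* (chromosome 5, 32135801 to 32157842, plus strand) had 269, 358 and 226 against 152 and 164. Its log2 fold change of -0.84 ± 0.24 lay at the threshold, with an edgeR adjusted p of 0.0504 that ranged from 0.0148 to 0.229 over 10 alternatives. *Atf3*, a stress-induced factor that can repress its targets, had its higher values in activated cells but few reads, with 2, 9 and 4 raw counts in the resting and 13 and 27 in the activated libraries (log2 fold change 1.86 ± 0.73, edgeR adjusted p = 0.115). Leaving out 1 library gave 1.22 (without the second activated) to 2.55 (without the second resting library).

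*Jund* (chromosome 8, 70698949 to 70700616, plus strand), which also has 1 exon, was the other member with higher activated values. It stood at 20970, 6069 and 5193 normalized counts in the resting and at 27862 and 36060 in the activated libraries. The first resting library was over 3 times the other resting libraries and close to the activated ones. The log2 fold change was 1.57 ± 0.58 (edgeR adjusted p = 0.0982), and without that library it was 2.51 with an adjusted p of 0.000886. Within the Jun family the log2 fold change of *Jund* thus had the opposite sign to those of *Jun* and *Junb*.

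**Figure D2:**
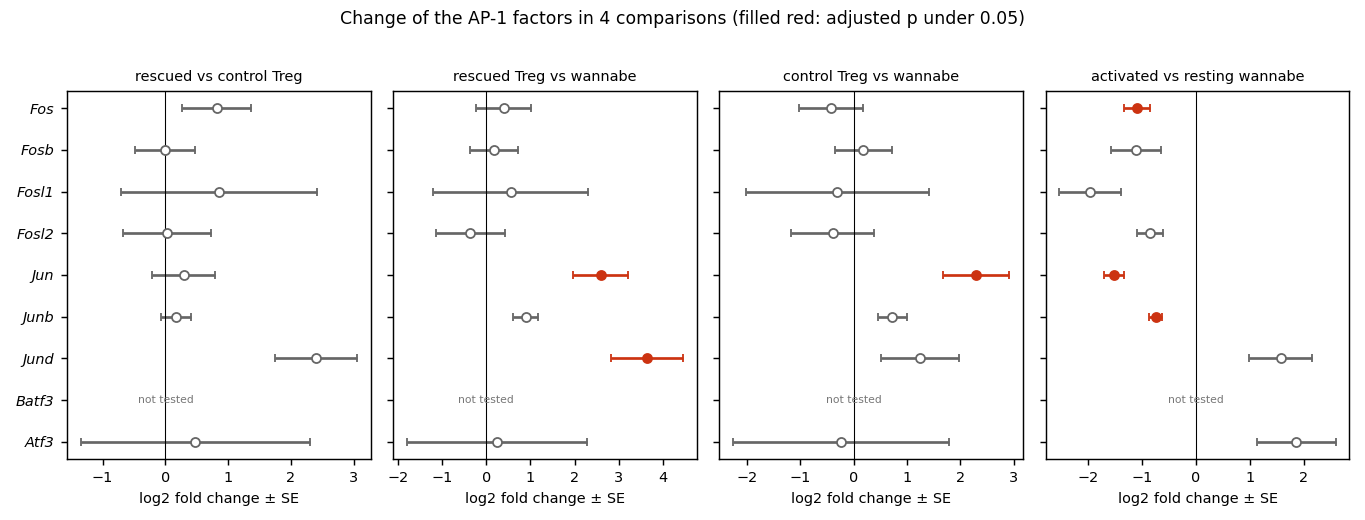
Log2 fold change ± SE of each AP-1 factor in the 4 comparisons between groups, fitted with edgeR over the 8 male or the 5 female libraries. Filled red points passed an adjusted p of 0.05 and open grey points did not; *Jun* was called in 3 of the 4 panels, and *Batf3* had too few counts to be tested.

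Of 22 early response genes that are not AP-1 members, 9 were called lower in activated “wannabes”, 2 higher and 11 neither, with a median log2 fold change of -0.45 against -0.01 for all genes tested. The largest changes among those called were *Ier3* (3.20), an apoptosis regulator, *Rhob* (-1.28), a small GTPase, *Klf6* (-0.94), a zinc finger factor, and *Ppp1r15a* (-0.83), which reverses the arrest of translation under stress. Without the second resting library *Ier3* was at 3.80, and its call was lost without either activated library (edgeR adjusted p = 0.0574 and 0.051). Of the heat shock list, kept as a sign of stressed cells, all 11 genes tested were called lower in activated cells, with a median log2 fold change of -1.34. Its largest changes were *Hspa1b* (-3.75), *Hspa1a* (-2.99), *Dnajb4* (-2.12) and *Hsph1* (-1.997), all chaperones or their cofactors. *Hspa1a* and *Hspa1b* are nearly identical genes between which reads can be split, and their normalized counts were 234, 308 and 409 and 499, 902 and 1075 in the resting libraries against 52.9 and 26.7 and 59.6 and 63.0 in the activated ones. For *Fos*, *Jun* and *Junb* both activated libraries lay below all 3 resting ones, so the shift was not that of a single library. The part of cell handling in the lower *Fos*, *Jun* and *Junb* was not tested, and the order of the libraries does not test it.

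The other bZIP genes, which can pair with AP-1 proteins or compete for their sites, were called lower 9 times and higher 2 times of 21 tested, with a median log2 fold change of -0.33. *Maf* (-1.11), *Bach2* (-0.76), a repressor that keeps T cells quiescent, and *Atf7* (-0.70) were lower, while *Maff* (0.99) was higher. Among 30 tested kinases, phosphatases and other inputs to AP-1, 2 were called higher and 4 lower, with a median of 0.05. The largest of these were the kinases *Map3k8* (1.22) and *Map2k3* (1.01) and the signaling inhibitor *Spry1* (-0.92), followed by the Ets factor *Elk3* (-0.56). Of the 6 partners at composite sites, *Irf4* (-1.02), *Nfat5* (-0.85) and *Nfatc1* (-0.31) were called lower and none higher, with a median of -0.13. Of 11 classical AP-1 targets tested, *Il4* (1.40) and *Il3* were called higher and *Mmp9* (-2.55, and -3.37 without the second activated library) lower, with a median of 0.58. *Il3* was at 0 counts in all resting libraries and at 48.1 ± 35.9 normalized counts in the activated ones, so no fold is given. Of the 45 genes of the 6 lists called in this comparison, 12 were called whichever library was left out and 33 lost the call without at least 1 library, while 0 changed sign.

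**Figure D3:**
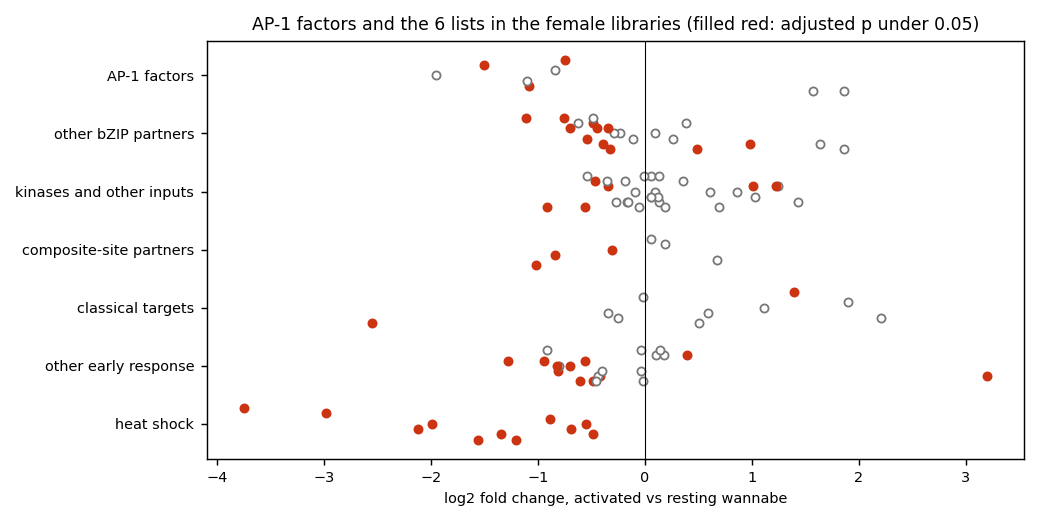
Log2 fold change, activated against resting “wannabes”, of each tested gene of the AP-1 factors and of the 6 lists; each point is 1 gene, its height within a row has no meaning, and filled red points passed an adjusted p of 0.05. All 11 heat shock genes lie left of 0; *Il3*, which had no counts in resting cells, is not drawn.

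In the male mice *Jun* was the one member called in both comparisons of Treg cells with “wannabes”. Its normalized counts were 2997, 1987 and 986 in control Treg cells, 3237, 2914 and 1164 in rescued Treg cells and 184 and 625 in “wannabes”. All 6 Treg libraries lay above both “wannabe” libraries. The log2 fold change was 2.30 ± 0.62 for control Treg cells (edgeR adjusted p = 0.0276) and 2.59 ± 0.63 for rescued Treg cells (edgeR adjusted p = 0.0184). Both calls were lost without the first “wannabe” library, at 1.66 (adjusted p = 0.115) and 1.96 (adjusted p = 0.0771), and without the second the values were 3.39 and 3.68 (edgeR adjusted p = 0.0143 and 0.0103). The call for control Treg cells was also lost without their first library, at 1.88 (adjusted p = 0.0889), or their second, at 2.30 (adjusted p = 0.0581). The myeloid list summed to 154 to 359 normalized counts in the Treg libraries and to 39.8 and 62.0 in “wannabes” and the T cell list to 119400 to 138500 and 150900 and 193800. The dendritic list summed to 29.2 to 63.3 in control and 71.2 to 122 in rescued Treg cells and to 138 and 241 in “wannabes”, and the part of other cells in the *Jun* difference was not tested.

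*Junb* had the same order of groups as *Jun*, with smaller differences. It had 28931, 28513 and 20883 normalized counts in control Treg cells, 35925, 32235 and 19688 in rescued Treg cells and 12333 and 19316 in “wannabes”, with the lowest Treg library just above the higher “wannabe”. Its log2 fold change against “wannabes” was 0.89 ± 0.27 for rescued (edgeR adjusted p = 0.0521) and 0.72 ± 0.27 for control Treg cells (edgeR adjusted p = 0.0944), and it passed the threshold in 6 and 2 of 14 alternatives. *Fos* did not share the pattern, with 3045, 1041 and 906 in control Treg cells, 4498, 3422 and 860 in rescued Treg cells and 2166 and 2291 in “wannabes”. Both “wannabe” values of *Fos* lay inside the range of each Treg group. *Fosb* ranged from 97.1 to 225 over the 8 male libraries and likewise overlapped in all 3 comparisons.

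*Jund* was highest in rescued Treg cells, mainly through 1 library. It had 11149, 1668 and 1451 normalized counts in the 3 rescued libraries, 893, 1016 and 804 in control Treg cells and 292 and 471 in “wannabes”, so that the 3 groups did not overlap. The log2 fold change of rescued Treg cells against “wannabes” was 3.64 ± 0.82 (edgeR adjusted p = 0.0129). Without the first rescued library it was 2.03 (adjusted p = 0.00263), and without the first “wannabe” library 3.33 (adjusted p = 0.0691). Against control Treg cells the log2 fold change was 2.39 ± 0.65 (edgeR adjusted p = 0.0914), and 0.79 without the first rescued library (adjusted p = 0.291). For control Treg cells against “wannabes” it was 1.25 ± 0.73 (edgeR adjusted p = 0.274), a difference that was called when the first rescued library was left out of the fit (1.25, adjusted p = 0.0161) or when only the 2 groups compared were fitted (1.21, adjusted p = 0.0387).

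Of the 8 members tested in the male libraries, 2 were called higher in rescued Treg cells than in “wannabes” (*Jun* and *Jund*; 10.0% of 14925 genes were) and 0 lower (4.06% of genes). In control Treg cells 1 was called higher than in “wannabes” (*Jun*; 9.92% of genes) and 0 lower (6.27%). Between rescued and control Treg cells 0 members were called, where 1.43% of genes were called higher and 0.864% lower. In that comparison 1 member had an unadjusted p under 0.05 in edgeR (*Jund*, as did 16.1% of genes), and DESeq2 called 0 members as well. The log2 fold changes ran from -0.01 to 2.39, and 7 of the 8 were above 0, as were 7133 of 14925 genes. Those of *Fosb*, *Fosl1*, *Fosl2*, *Jun*, *Junb* and *Atf3* changed sign when some single library was left out. The *Fos* difference was 0.82 ± 0.55 (edgeR adjusted p = 0.535), and its rescued and control libraries overlapped. Libraries of the male experiment also varied more (edgeR's common coefficient of biological variation was 0.51, against 0.171 in the female one).

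Some of the inputs to AP-1 also differed between Treg cells and “wannabes”. Of 30 inputs tested, 8 were called higher and 3 lower in rescued Treg cells and 9 higher and 3 lower in control Treg cells, with medians of 0.64 and 0.47 against 0.00 and 0.09 for all genes. In rescued Treg cells the largest were the MAP kinase kinase genes *Map2k2* (log2 fold change 2.64) and *Map2k1* (1.50) and the phosphatase genes *Dusp4* (2.46) and *Dusp10* (-1.62). In control Treg cells they were *Dusp4* (2.50), the Ras pathway inhibitor *Spred1* (2.29), *Dusp10* (-1.96) and the Jun kinase gene *Mapk8* (1.58). *Spred1* lost its call without any 1 of the control libraries or the first “wannabe” library, and was at 2.99 without the second. Other early response genes were called higher 5 times and lower 1 time of 21 in rescued Treg cells, led by *Ier5* (3.79), *Dusp1* (2.73), *Socs3* (1.56) and *Egr1* (1.54). Without the first rescued library *Ier5* was at 2.67 and *Dusp1* at 1.96, and without the second “wannabe” library *Socs3* was at 2.29. In control Treg cells 6 were called higher and 2 lower, led by *Ier3* (-3.60), *Nr4a2* (2.51), *Ier5* (2.02) and *Dusp1* (1.62), and the medians were 0.26 and 0.40.

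The lists of partners and targets moved in both directions. Of 19 bZIP genes tested, *Crem* (1.25) was higher and *Nfe2l2* (-0.95) lower in rescued Treg cells than in “wannabes” (median 0.15). In control Treg cells *Bach2* (1.99) and *Crem* (1.02) were higher and *Mafg* (-1.37) and *Batf* (-0.79), a binding partner of Jun proteins with Irf4, were lower (median 0.17). Of the 6 composite-site partners, *Irf8* (1.43), *Nfatc2* (0.91) and *Nfatc3* (0.87) were higher and *Irf4* (-0.99) lower in rescued Treg cells (median 0.89). *Nfat5* (2.15) was higher and *Irf4* (-0.66) lower in control Treg cells (median 0.46). Of 13 classical targets tested, *Mmp9* (4.88, with 0 and 97 raw counts in “wannabes”, and 3.86 without the first of these libraries; without the second the group is at 0 and the fold has no bound from the fit) was higher and *Il4* (-2.75) and *Il13* lower in rescued Treg cells (median -0.24). *Il2ra* (0.78), the IL-2 receptor chain of Treg cells, was higher and *Il4* (-9.25, with 3, 0 and 11 raw counts in control Treg cells, and -10.8 to -8.65 with the third or the second of them left out) and *Il13* lower in control Treg cells (median -1.19). *Il13* stood at 97.6 ± 36.0 normalized counts in “wannabes” and at 0 or below the floor in all Treg libraries. Of the list genes called against “wannabes”, 20 of 26 in rescued and 13 of 33 in control Treg cells were called whichever library was left out, and 0 changed sign.

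Between rescued and control Treg cells edgeR called few genes of any list, and DESeq2 called more. DESeq2 called 4 bZIP genes higher and 1 lower, 3 inputs higher and 2 lower, and 3 composite-site partners higher and 1 lower. It also called 2 classical targets higher and 0 lower, and 2 other early response genes higher and 1 lower. The genes called by edgeR were *Nfil3* (3.05, and 2.24 without the first rescued library) and *Bach2* (-2.08) of the bZIP genes (median -0.05), *Map2k2* (1.15) and *Map2k3* (0.92) of the inputs (median 0.12) and *Nfatc1* (0.66) of the composite-site partners (median 0.43). *Il4* (6.50, and 5.90 or 8.03 without the second or the third control library) was the one called classical target (median 1.28, or 0.82 with *Il2* and *Il3*, which were at the floor in 1 group, at their bounds) and *Ier3* (2.76) the one other early response gene (median 0.18). *Hspa1a* (-5.44) was the one called heat shock gene, of 11 tested (median -0.65), and DESeq2 called 4 lower. Without the first control library the *Hspa1a* difference was -3.08 (edgeR adjusted p = 0.252). Of the 8 list genes called here, 3 were called whichever library was left out. The heat shock list had 0 genes called between rescued Treg cells and “wannabes” (median -0.15, 1 at an unadjusted p under 0.05 in edgeR, and 1 called lower by DESeq2). In control Treg cells 4 were called higher than in “wannabes” and 0 lower (median 0.55), *Hspa1a* (5.29), *Hspa1b* (5.21), *Hsph1* (1.14) and *Dnaja1* (0.88). All 4 lost the call without the first control library, where *Hspa1a* was at 2.93 and *Hspa1b* at 2.34 (edgeR adjusted p = 0.144 and 0.0966). Without the first or the second “wannabe” library *Hspa1a* was at 4.50 or 6.95 and *Hspa1b* at 4.73 or 5.85.

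The early members moved together between replicate libraries of 1 group. In the first control Treg library all 5 early members were the highest of the group and in the third all 5 were the lowest, whereas 32.3% and 31.0% of all genes held these places. In the third rescued Treg library all 5 were the lowest, against 35.8% of all genes. *Fos* in these groups is the clearest case, with 3045 in the first control library against 1041 and 906, and 860 in the third rescued library against 4498 and 3422. In the first rescued library 4 of the 5 were the highest, as were 5142 of 14925 genes. In the 2 “wannabe” libraries all 5 were lower in the first, and the share over all genes was not computed there. Among the resting libraries none held all 5 at an extreme. The second was the highest for 4 of the 5 and for 5179 of 13166 genes. Of *Fosl1*, *Fosl2* and *Jund*, 0 were highest in the first control library and 1 was lowest in the third, while 2 were lowest in the third rescued library and all 3 were lower in the first “wannabe” library.

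Other genes marked the same libraries to different extents. In the first control library 11 of 11 heat shock genes were the highest of the group, with *Hspa1b* at 3988 normalized counts against 128 and 274 and *Hspa1a* at 1606 against 125 and 116. Of the other early response genes 8 of 21 were highest there, and 8 of 21 lowest. In the third rescued library 15 of 21 other early response genes and 7 of 11 heat shock genes were the lowest. In the third control library these numbers were 12 of 21 and 4 of 11. Both lists also ranked apart from the early members. In the second control library 7 of 11 heat shock genes were the lowest and 11 of 21 other early response genes the highest, with 0 of the 5 early members at either extreme, and in the second rescued library 9 of 11 heat shock genes but 1 of the 5 early members were the highest. The part of cell handling in these differences between replicates was not tested, and they set the spread against which the Treg groups were compared. The higher *Jun* in Treg cells was smaller without the first control library, as given above, and *Fos* in rescued against control Treg cells was larger without it, at 1.59 (adjusted p = 0.266).

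**Figure D4:**
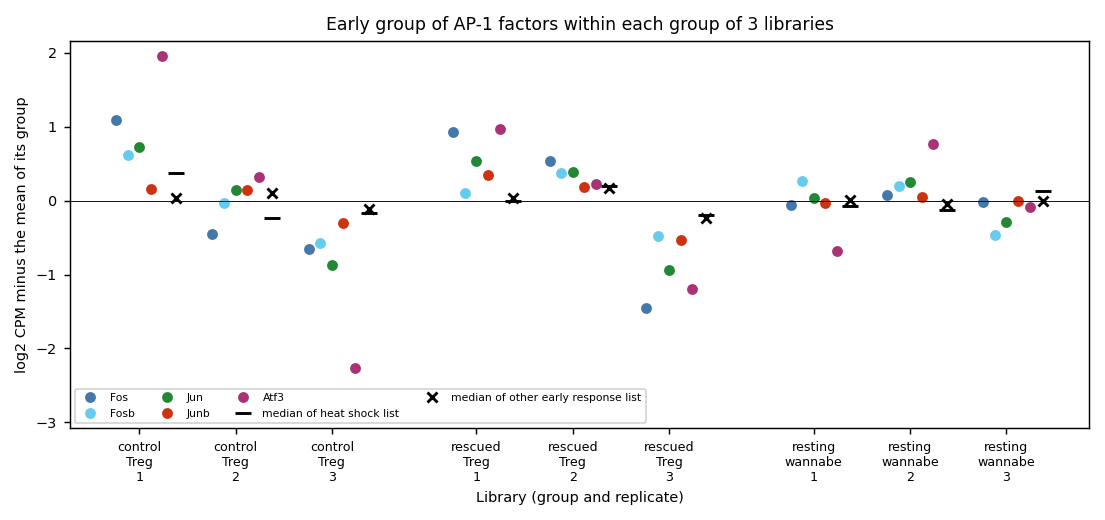
Log2 CPM of the 5 early AP-1 factors minus the mean of their group in each library of the groups of 3, with the median of the heat shock list (bar) and of the other early response list (cross). All 5 factors lie above 0 in the first control Treg library and below 0 in the third control and the third rescued Treg libraries.

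The excess of *Jund* in single libraries was shared by a small set of genes. In the first rescued library 57 genes (0.382% of those tested) had at least 1000 normalized counts and at least 3 times the next library of the group, and *Jund* was the only AP-1 factor among them. In the first resting library 18 genes (0.137%) met the same limits, again with *Jund* as the only AP-1 factor, while the other libraries of the groups of 3 had 0 to 7. These limits were set after the values of *Jund* were seen. The lists shared 7 genes, which is 12.3% of the first and 38.9% of the second: *Jund*, *Ctbp1*, *Klf2*, *Lamp1*, *Ppp2ca*, *Rac1* and *Rnf187*. *Klf2*, a quiescence and homing factor of T cells, had 5418, 933 and 935 in the rescued and 11874, 3258 and 2878 in the resting libraries, and *Rac1*, a small GTPase, had 6278, 1629 and 1527 and 9744, 2721 and 2280. All 7 were also high in both activated libraries, *Klf2* with 11865 and 16703.

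**Figure D5:**
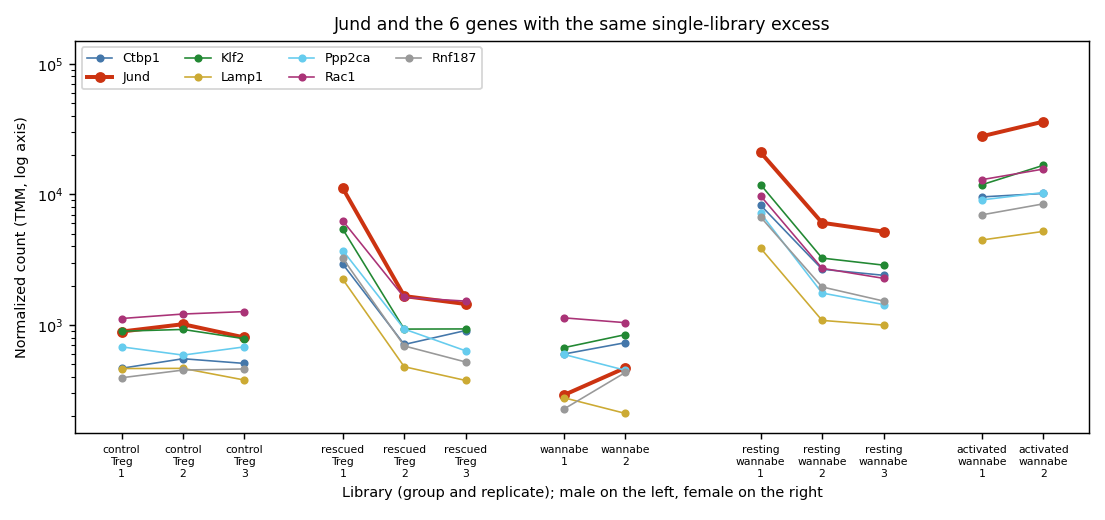
Normalized count (log axis) of *Jund* (thick red line) and the 6 genes that met the same limits in the first rescued and the first resting library, joined within each group. *Jund* stands at 11149 in the first rescued library against 1668 and 1451, and the other 6 genes step down with it in both groups.

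GC-rich genes as a set moved with *Jund* in the male libraries. The transcript of *Jund* is 67.1% G and C, and that of *Junb* 62.6%. The 57 genes in excess in the first rescued library had a median GC content of 53%, and the 18 of the first resting library 54.9%. The 148 tested genes at or above the GC content of *Junb* deviated from the mean of all male libraries by a median of 0.83 on the log2 scale in the first rescued library, 0.19 and 0.31 in the other rescued libraries, -0.10 to 0.13 in control Treg cells and -0.93 and -0.35 in “wannabes”. The *Jund* deviations were 3.29, 0.56 and 0.35, -0.49 to -0.16, and -1.95 and -1.26. The 141 such genes tested in the female libraries deviated less, by 0.04, -0.10 and -0.13 in the resting and 0.16 and 0.16 in the activated libraries, where *Jund* deviated by 0.52, -1.27 and -1.49 and by 0.93 and 1.30, so that both were lowest in the second and the third resting library. The part of GC content in the *Jund* differences was not tested. *Jund* also shares 877 exonic bases with *Gm11175* on the opposite strand, *Jun* 232 with *Junos* and *Junb* 173 with *Prdx2*, and the strand setting of the counting is not given in the sources used here, so reads of such pairs may not be told apart. *Prdx2*, at 2472 to 5222 normalized counts, was not called in any of the 4 comparisons (edgeR adjusted p from 0.07 to 0.403).

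*Fosl1*, *Atf3* and *Batf3* had low counts, and *Fosl2* had more. *Fosl1* (chromosome 19, 5447547 to 5455946, plus strand), which encodes Fra-1, had 0 to 62.3 normalized counts, with 0 in the first and 45.6 in the second control Treg library. In the female mice it had 24.2, 31.6 and 44.7 in the resting and 5.67 and 11.5 in the activated libraries (log2 fold change -1.95 ± 0.57, edgeR adjusted p = 0.0529, and -2.55 without the second activated library). It shares 1163 of its 2033 exonic bases with *Ccdc85b* on the opposite strand, a gene at 241 to 1360 normalized counts that was called higher in control (1.93) and rescued Treg cells (2.10) than in “wannabes”, so the *Fosl1* counts are uncertain. *Atf3* (chromosome 1, 191170296 to 191218039, minus strand) had 35.4, 10.0 and 0 in control Treg cells, 35.9, 20.7 and 6.42 in rescued Treg cells and 0 and 35.5 in “wannabes”. *Fosl2*, which encodes Fra-2, had 32.8 to 140 over the male libraries, and its groups overlapped in every male comparison. In each of these 3 genes the spread within a group was as wide as the differences between male groups.

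*Batf3* (chromosome 1, 191097847 to 191108945, plus strand) had its highest male values in “wannabes”. It had 39 and 9 raw counts in the 2 “wannabe” libraries, 0 in all 3 control Treg libraries and 0, 0 and 3 in the rescued ones. A count of 0 allows up to 3 counts, and against that floor the “wannabe” mean of 23.2 ± 19.0 normalized counts was at least 7.91-fold higher than in control Treg cells. The bound rests mainly on the first “wannabe” library, and without it was 3.31-fold (12.5-fold without the second). It was too rare to be tested in either experiment. In the female libraries it had 7, 13 and 0 raw counts in resting and 6 and 6 in activated cells, so the groups overlapped. *Xcr1*, a receptor of dendritic cells that *Batf3* specifies, was chosen from the dendritic list after its values were seen. It had 207 and 99.0 normalized counts in “wannabes” against 61.1, 11.8 and 3.77 in control and 32.1, 55.7 and 56.9 in rescued Treg cells, and it made up most of the dendritic sum of the “wannabes”. Of the other dendritic markers *Clec9a* was at 0 in all libraries, *Siglech* at 0 in the male ones, and *Itgax* at 0 in both “wannabe” libraries, with 0, 0 and 1 raw counts in control and 0, 6 and 6 in rescued Treg cells. The part of dendritic cells in the *Batf3* counts was not tested. In bulk samples a change in RNA per cell and a change in the number of cells that hold it cannot be told apart.

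Among the members, *Jun* and *Junb* ran most closely together over the 8 male libraries (Pearson's r of log2 CPM 0.97), followed by *Fosb* and *Atf3* (0.85), *Junb* and *Jund* (0.78) and *Fos* and *Fosb* (0.75), whereas *Fos* and *Jun* were at 0.29. These are descriptions over 8 libraries in 3 groups that share depth and preparation. The 3 genes whose levels were most like *Fos* were *Psmd8* (0.94), *Sult4a1* (0.93) and *6430531B16Rik* (0.91). For *Junb* they were the histone genes *Hist2h2aa2* (0.97) and *Hist1h2al* (0.96), which belong to a family of near copies, and *Poldip2* (0.96). For *Fosl2* they were *Mthfsd* (0.96), *Tmem132a* (0.95) and *Wdr83* (0.93), and for *Batf3* *Arfgap1* (0.98), *Ing3* (0.97) and *Rcan2* (0.97). As *Batf3* had 0 to 3 counts in the 6 Treg libraries, its values rest on the prior count and the 2 “wannabe” libraries.

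The rescued minus control change of Treg cells was set against the activated minus resting change of “wannabes” in a contrast over all 13 libraries, to ask whether the members respond differently where Foxp3 is expressed. Of the 9 members tested here, 0 were called by edgeR, where 1.53% of 15201 genes were called, and DESeq2 called 0 as well. The members *Junb* (log2 difference 0.92 ± 0.33), *Jun* (1.81 ± 0.69) and *Fos* (1.92 ± 0.78) had unadjusted p-values under 0.05, as did 13.8% of genes, and edgeR adjusted p-values of 0.214, 0.251 and 0.281. Without the first control library the *Fos* difference was 2.68 (edgeR adjusted p = 0.0965). All 3 values were positive, the change being near 0 or upward in Treg cells and downward in “wannabes”. The fall of *Fos*, *Jun* and *Junb* in activated “wannabes” was thus not shown to differ from their change in Treg cells, and sex, age and treatment differ between the experiments.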

How the data were processed

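RNA of sorted cells was amplified with SMART-Seq v4 and made into libraries with KAPA Hyper Prep. The authors used STAR 2.7.3a for alignment to GRCm38, GATK for local realignment, and R for counting reads over genes. The deposited values are read counts that had not been normalized. Annotation and strand setting are not given in the sources used here. Each table holds 24421 entries, of which 4 without a gene name (at most 0.00841% of counts) were left out. Groups came from the labels. Genes were tested in R 4.3.3 with edgeR 4.0.16 (TMM, filterByExpr, quasi-likelihood F test, Benjamini-Hochberg adjustment over all genes tested, adjusted p under 0.05), in 1 fit of the 8 male libraries, 1 of the 5 female libraries and 1 of all 13 for the difference of changes. Log2 CPM used a prior count of 2. Lengths, GC content and positions come from GENCODE M21 on GRCm38, matched by symbol for 23607 genes (96.7%). The tests were tried on simulated data.

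The members and the lists were chosen with earlier results of these data known. All members were named in every library. The lists (other bZIP genes, inputs, composite-site partners, classical targets, other early response genes, heat shock genes) were described by counts and medians, naming at most 4 called genes with the largest change per list and comparison, and the 3 genes most like *Fos*, *Junb*, *Fosl2* and *Batf3* over the male libraries. Alternatives tried were a DESeq2 1.42.0 fit, edgeR with DESeq2's size factors or library totals, no filter, the replicate number as a block, only the 2 groups compared, and leaving out each library. No chance test over gene lists was made. The floors cover counting error only. SD measures the spread between libraries of a group. SE is that of the fitted log2 fold change, taken as its size divided by the square root of edgeR's F statistic.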

Additional observations from a re-analysis of the deposited data

Results flagged for a closer look

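Of the 9 AP-1 factors, 0 passed the test of the difference between the control to rescued Treg and the resting to activated “wannabe” change. Over all 15201 genes 1.53% passed (edgeR, contrast over all 13 libraries). Of the 6 lists 11 genes passed. The lists had 21 bZIP genes, 30 inputs, 6 composite-site partners, 13 classical targets, 22 other early response genes and 11 heat shock genes tested. For bZIP genes the log2 difference was 2.30 for *Maf* (adjusted p = 0.0163), 3.55 for *Nfil3* (adjusted p = 0.0227) and -1.31 for *Bach2* (adjusted p = 0.0152). *Maf* had 1.18 in Treg cells and -1.11 in “wannabes”. *Bach2* was lower in both experiments, by -2.08 and -0.76. Among inputs *Dusp6*, a phosphatase of ERK, had 1.27 (adjusted p = 0.0286) and the kinase gene *Map3k8* -2.04 (adjusted p = 0.00592), the change of *Map3k8* being -0.83 in Treg cells and 1.22 in “wannabes”. *Nfatc1*, the NFAT partner of AP-1, had 0.99 (adjusted p = 0.0144). The classical targets *Il4* and *Mmp9* had 5.12 (adjusted p = 0.0101) and 5.67 (adjusted p = 0.0471). The early response genes *Egr1* and *Klf6* had 1.33 (adjusted p = 0.0374) and 1.14 (adjusted p = 0.013), each with a negative change in “wannabes” of -0.71 and -0.94. The heat shock gene *Dnajb1* had 1.09 (adjusted p = 0.0155), with -0.27 in Treg cells and -1.34 in “wannabes”. None of the 11 was called whichever library was left out, each losing its call without 1 to 11 of the 13 libraries, and 0 changed sign. The difference of *Nfil3* was 2.74 without the first rescued library, that of *Il4* 6.65 without the third control library (the control libraries held 3, 0 and 11 raw counts) and that of *Mmp9* 6.48 without the second activated library. Sex, age and treatment differ between the experiments and cannot be told apart from these differences.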

How the results depend on the processing

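Of 577 member values recomputed under the alternatives, 519 kept their sign and their side of the threshold, and the 34 that changed sign were all of values that were not called. The fall of *Fos*, *Jun* and *Junb* in activated “wannabes” was called in each of 10 alternatives. DESeq2 called 5 members there, and leaving out each library in turn gave 3 to 4. Leaving out each library in turn gave 0 members called between rescued and control Treg cells and 0 for the difference of changes, 0 to 3 for rescued Treg cells against “wannabes” and 0 to 2 for control Treg cells against “wannabes”. A group left with 1 library was assumed to vary like the others. Without the filter on low counts 1 member was called between rescued and control Treg cells (*Jund*, 2.40, adjusted p = 0.00738). For control Treg cells against “wannabes” 2 members were called when only the 2 groups were fitted (*Jun* and *Jund*). Libraries with the same replicate number shared little deviation over all genes, with correlations from -0.03 to 0.08. Such values cannot show whether these libraries were prepared together. With the replicate block 2 members were called for control Treg cells against “wannabes” (*Jun* and *Junb*).

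Between rescued and control Treg cells *Fosb* was at 0.011 with DESeq2 or DESeq2's size factors, at 0.009 with the replicate block, and at 0.004 in the fit of 2 groups, and *Fosl2* at -0.037 with library totals alone. For control Treg cells against “wannabes” the replicate block gave 0.005 for *Fosl1* and 0.039 for *Atf3*. Leaving out libraries gave, for rescued against control Treg cells, -0.25 to 0.36 for *Fosb*, -0.32 to 0.41 for *Fosl2*, -0.032 to 0.713 for *Jun*, -0.008 to 0.384 for *Junb*, -0.008 to 2.90 for *Fosl1* and -0.16 to 2.04 for *Atf3*. For rescued Treg cells against “wannabes” it gave -0.059 to 0.831 for *Fos*, -0.073 to 0.418 for *Fosb*, -0.32 to 3.04 for *Fosl1*, -0.91 to 0.48 for *Fosl2* and -0.76 to 7.41 for *Atf3*. For control Treg cells against “wannabes” it gave -0.19 to 0.43 for *Fosb*, -2.34 to 2.19 for *Fosl1*, -0.94 to 0.45 for *Fosl2* and -1.79 to 6.94 for *Atf3*. For the difference of changes it gave -2.07 to 0.18 for *Atf3* and -0.78 to 1.29 for *Jund*, which was below 0 without the first rescued (-0.78) or the first resting library (-0.095). The cause was not tested. Other scalings changed the order of the male group means only for *Fosb* or *Fosl2*, 1 member each, and library totals alone shifted the median of all genes from 0.09 to 0.14 for control Treg cells against “wannabes”.

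The number of genes called over the whole table moved more. It was 343 between rescued and control Treg cells, 1195 with DESeq2, 612 without the filter, 580 in the fit of 2 groups and 114 to 598 with a library left out. DESeq2 called 3777 against 2958 in the female mice, 3335 against 2105 for rescued Treg cells and 3767 against 2416 for control Treg cells compared with “wannabes”, and 805 against 233 for the difference of changes, where leaving out a library gave 44 to 430. Leaving out a library gave 751 to 3215 in the female mice and 1549 to 2423 for control Treg cells against “wannabes”. A difference of *Batf3* between control and rescued Treg cells was not detectable at this depth, each library holding at most 3 counts.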
